A study of Mus musculus with 8 samples.

Results

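The array titled OSK 2 is 1 of 3 one-colour expression arrays of OSK induced pluripotent stem cells (iPSCs) of the mouse. Its genes were chosen by their level. Levels are on the log2 scale of the processed signal, with each array's 75th percentile subtracted, and a level of 0 equals that percentile. A feature (a named gene, or a transcript known only by an identifier) was a member where OSK 2 lay at least 0.7 log2 units above the highest or below the lowest of the other 6 iPSC arrays. The distance to the nearest of those arrays is called the gap. Of 36979 features, 22685 stood well above background on 3 or more of the 8 arrays, and 178 of these were members. OSK 2 was above the other iPSC arrays for 104 features (0.458% of those examined) and below them for 74 (0.326%). Of these, 54 and 32 are named genes. Since OSK 2 chose them, its own levels are given as a description, with no test.

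The other iPSC arrays were OSK 1, OSK 3 and OSKH 1 to OSKH 4, and 1 array held RNA of B6J-23, an embryonic stem cell (ESC) line. All cells are undifferentiated, of the C57BL/6J strain, and OSK is the control group in the series' design. OSK is taken to stand for the reprogramming factors Oct4, Sox2 and Klf4, and the H for H1foo, an oocyte linker histone that was the factor under study. The labels spell out none of these letters, give no source cell, vector or passage, and leave it unstated if a group's arrays come from different lines or cultures. The variation that any p-value here is set against is therefore that of the arrays, and may be technical.

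Mouse pluripotent cultures hold a rare and passing state that resembles the embryo at its 2-cell stage, in which Zscan4 and other genes of zygotic genome activation are switched on. Zscan4 genes are known for their part in telomere maintenance in these cells. Chd3 is an ATPase of the NuRD complex, which joins nucleosome remodelling to histone deacetylation. The imprinted region of chromosome 12 gives rise to long noncoding RNAs and microRNA hosts from the maternal copy, and their silencing is known in some iPSC lines. The guanylate-binding and IRG proteins are GTPases induced by interferon.

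The 7 iPSC arrays and ESC carried the pluripotency markers fixed for this check. All 6 of them (Pou5f1, Sox2, Nanog, Zfp42, Esrrb and Dppa5a) were well above background on every array, and OSK 2 lay within the other iPSC arrays for 4 of the 6. Sox2 (2.96 against 3.03 to 3.61) and Nanog (1.33 against 1.36 to 2.28) were just below. The 3 endoderm markers Gata4, Gata6 and Sox17 were not well above background on OSK 2. The summed linear signal of 6 fibroblast and feeder markers was 5.20 times the 75th percentile on OSK 2 and ran from 4.30 to 17.9 on the other iPSC arrays. The summed signal of 3 mesendoderm markers was 0.680 on OSK 2 and ran from 0.425 to 24.9 elsewhere, with OSKH 4 the highest. Of these, Eomes and Gsc (not well above background) were just below the other iPSC arrays on OSK 2, and T lay within them. Among the neural, trophectoderm and blood markers, Sox1 was highest on OSK 2 (1.25 against -1.03 to 1.12). Krt7 was lowest there (-2.32 against -2.18 to -0.06), and the rest lay within the other iPSC arrays. The share of probes well above background ran from 51.4% to 59.0% per array (51.6% on OSK 2), 0 were saturated, and the number of arrays limits the precision.

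By the same rule, each iPSC array had features of its own. OSKH 1 had 834 (3.68% of those examined), OSKH 4 had 655 (2.89%), OSK 2 had 178, OSK 1 had 171 (0.754%), OSKH 3 had 81 (0.357%), OSK 3 had 50 (0.220%) and OSKH 2 had 40 (0.176%). OSK 2 thus held fewer than the 2 outermost OSKH arrays and about as many as OSK 1. Over all features examined, the root mean square log2 distance of OSK 2 was 0.376 to OSK 1, 0.384 to OSK 3 and 0.388 to OSKH 2. It was 0.508 to OSKH 3, 0.527 to ESC, 0.596 to OSKH 4 and 0.601 to OSKH 1. OSK 2 lay nearest to its own group and to OSKH 2.

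**Figure D1:**
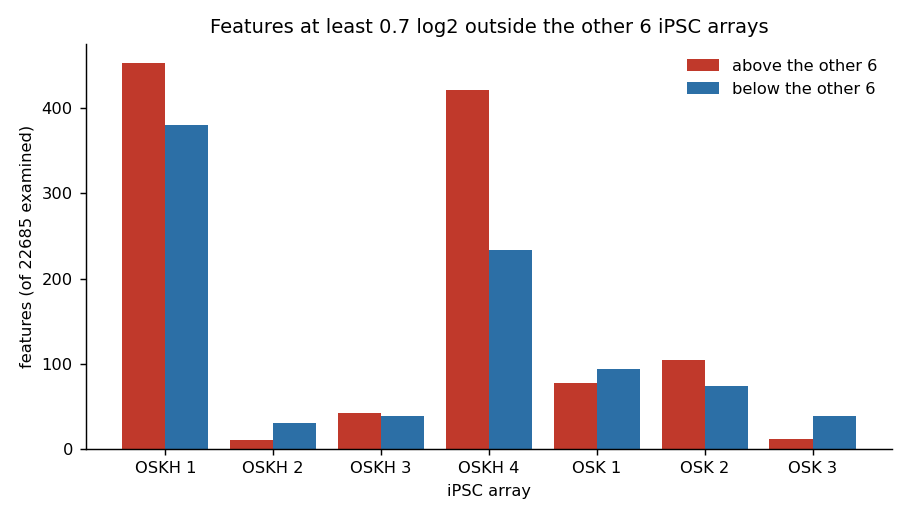
Number of features, of 22685 examined, on which each iPSC array lay at least 0.7 log2 units above (red) or below (blue) all other 6 iPSC arrays; the y axis counts features. OSK 2 has 104 above and 74 below, between OSKH 1 (453 and 381) and OSKH 2 (10 and 30).

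The promoters of 3 members of the 2-cell-like group show how alike some of these genes are. Each sequence is the 250 bases before the start of the gene in RefSeq (GRCm38.p6), on the plus strand. Capitals mark TATAAA in both Zscan4 genes (chr7:11397665-11397914 and chr7:11005495-11005744) and GATTNAATC, a site of the Dux type, in Gm4340 (chr10:104193792-104194041).
Zscan4f: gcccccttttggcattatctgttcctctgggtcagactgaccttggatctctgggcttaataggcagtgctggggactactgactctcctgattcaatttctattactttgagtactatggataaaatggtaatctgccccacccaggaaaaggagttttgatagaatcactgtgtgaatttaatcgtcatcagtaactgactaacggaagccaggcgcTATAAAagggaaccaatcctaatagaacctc
Zscan4c: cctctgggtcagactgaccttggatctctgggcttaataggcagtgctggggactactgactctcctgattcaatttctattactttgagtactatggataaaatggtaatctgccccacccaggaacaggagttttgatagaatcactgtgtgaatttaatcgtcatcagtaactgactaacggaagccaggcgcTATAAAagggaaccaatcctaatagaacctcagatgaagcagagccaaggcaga
Gm4340: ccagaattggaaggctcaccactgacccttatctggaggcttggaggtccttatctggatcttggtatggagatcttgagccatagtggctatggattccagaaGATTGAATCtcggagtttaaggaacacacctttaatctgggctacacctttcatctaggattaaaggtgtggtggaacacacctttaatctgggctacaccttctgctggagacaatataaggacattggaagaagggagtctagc
Shifted by 23 bases, the Zscan4c and Zscan4f sequences had 226 of 227 overlapping bases in common. Probes of such near-identical copies may share transcripts, so their levels are not separate measurements.

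Of the gene lists used, that of the 2-cell-like state held the most higher members. Of 29 genes listed for that state, 16 were examined, and 7 were members (Zscan4a, Zscan4c, Zscan4f, Tcstv1, Gm4340, Gm8300 and Tmem92), all of them higher on OSK 2. The median of OSK 2 minus the mean of OSK 1 and OSK 3 over the 16 genes was 1.13, and -0.025 over all features. OSK 2 was the highest iPSC array for 11 of the 16 (68.8%) and for 9.84% of all features. Since the level of OSK 2 chose the members, these values only describe the list and do not test it. Tcstv1, Gm8300 and Tmem92 passed the filter only through OSK 2, OSK 1, OSK 3 and OSKH 2, where they were raised.

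Zscan4f encodes a zinc finger and SCAN domain protein that marks the 2-cell-like state. Its level was 3.03 on OSK 2, 1.24 on OSK 1 and 0.76 on OSK 3. On OSKH 1 to OSKH 4 it was -1.36, 1.72, -0.40 and -0.69, and on ESC it was -2.07. OSK 2 was the highest, OSKH 2 came next, and the other OSK arrays lay above the remaining OSKH arrays and ESC. The gap was 1.32, and OSK 2 was 2.82 above the mean of the other 6 arrays (0.21 ± 1.21, SD, n = 6), a 7.07-fold difference.

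Zscan4c and Zscan4a, further genes of the cluster, kept the same order of arrays. Zscan4c was at 2.21 on OSK 2, 0.32 on OSK 1, -0.06 on OSK 3 and -2.20, 0.71, -1.11 and -1.37 on OSKH 1 to OSKH 4, with ESC at -3.02. Zscan4a was at 2.12 on OSK 2, 0.08 on OSK 1, -0.22 on OSK 3 and -2.15, 0.64, -1.39 and -1.78 on OSKH 1 to OSKH 4, with ESC at -2.77. For both, OSKH 2 was the nearest array and ESC lay below every iPSC array. The other 2 probes of Zscan4c had gaps of 0.89 and 1.55, and the other probe of Zscan4a 1.38.

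Gm4340, a predicted gene of the same list, was at 2.75 on OSK 2, 0.76 on OSK 1, 0.47 on OSK 3 and -1.57, 1.36, -0.56 and -0.89 on OSKH 1 to OSKH 4. Its ESC level was -2.20, again the lowest of the 8. Tmem92, which encodes a transmembrane protein, was at -1.06 on OSK 2, -3.29 on OSK 1, -2.85 on OSK 3 and -6.31, -2.34, -4.73 and -5.13 on OSKH 1 to OSKH 4. Tmem92 was well above background on OSK 2, OSK 1, OSK 3 and OSKH 2 alone, so only those 4 levels are measurements.

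Tcstv1 and Gm8300 were likewise measured on 4 arrays. Tcstv1 was at -2.09 on OSK 2, -3.64 on OSK 1, -3.91 on OSK 3 and -3.84 on OSKH 2, with a gap of 1.55. Gm8300 was at -1.45 on OSK 2, -3.13 on OSK 1, -2.97 on OSK 3 and -2.71 on OSKH 2, with a gap of 1.26. In both, OSK 2 was the highest and the 3 other measured arrays were close together. Tcstv3, a relative of Tcstv1, had a gap of 1.52 but was well above background on 2 arrays and did not pass the filter.

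The other 9 examined genes of the list did not meet the rule. Zfp352 (3.19 on OSK 2 against 2.92 to 3.12 on the other iPSC arrays), Trim43c (1.25 against 0.83 to 1.13) and Sp110 (7.87 against 7.68 to 7.80) were the highest on OSK 2 by gaps of 0.07 to 0.12. Usp17ld, a deubiquitinase gene, had a gap of 0.56. Usp17la and Usp17lb were instead highest on OSK 1, at -0.57 and -0.91, with OSK 2 at -1.15 and -1.99. Nelfa, Trim43b and Lmx1a lay within the other arrays. The list was thus not uniform on OSK 2.

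**Figure D2:**
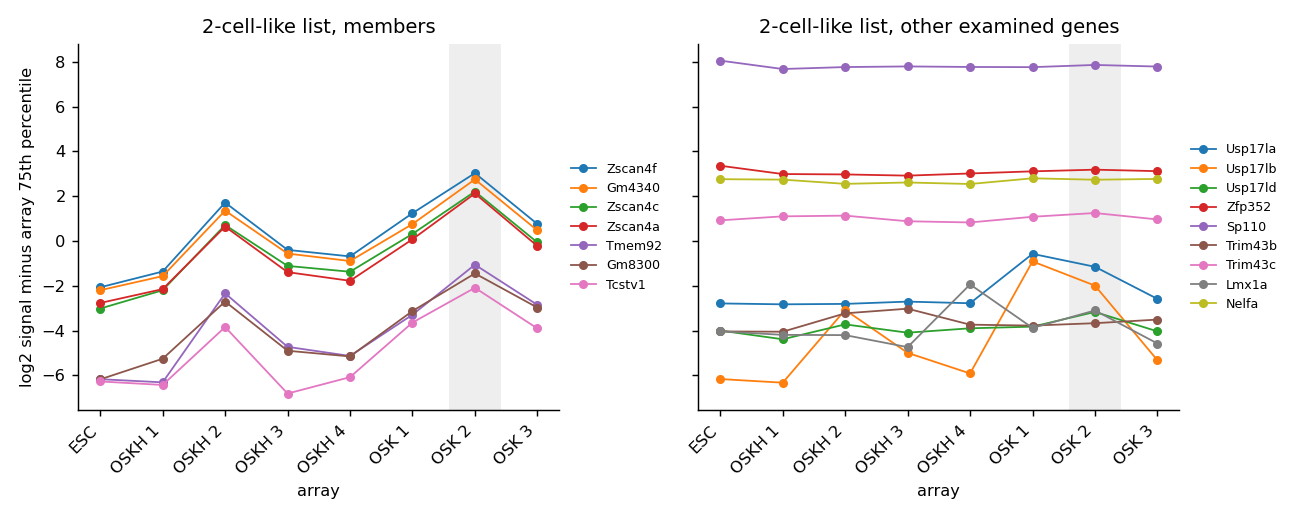
Level (log2 signal minus the 75th percentile of the array) of the 16 examined genes of the 2-cell-like list on the 8 arrays, with the 7 members on the left, the other 9 on the right and OSK 2 shaded; lines only join the points of a gene. The members share their order, with OSK 2 highest and OSKH 2, OSK 1 and OSK 3 above the other iPSC arrays and ESC.

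The same order of arrays ran through a wider set. In 54 of the 104 higher members (51.9%), OSKH 2, OSK 1 and OSK 3 all lay above OSKH 1, OSKH 3, OSKH 4 and ESC, an order found in 777 of all features (3.43%). This order was picked after its values were seen. It does not use the level of OSK 2, but the filter can favour it. A dim member such as Gm16367, well above background on OSK 2 and 2 other iPSC arrays, passes only through arrays where it is raised. The share among the members is thus not independent of how they were chosen. The median level of the 54 was -0.015 on OSK 2, -1.21 on OSKH 2, -1.48 on OSK 1, -1.88 on OSK 3, -3.00 on OSKH 3, -3.31 on OSKH 1, -3.40 on OSKH 4 and -4.16 on ESC. Named genes of this set outside the list include Pramel19, Pramel20, Pramel31, Pramel39 and Pramel50, of the PRAME family of leucine-rich repeat proteins. Many of the others are predicted genes (Gm20767, Gm16367, Gm21319, Gm13043, Gm4303, Gm4312, Gm2022) in families with near-identical copies. Pramel19, Pramel31, Pramel39, Pramel50, Gm13043, Gm4303, Gm4312 and Gm2022 lie outside the naming rule and were chosen after their values were seen.

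AF067061 had the highest gap of the set among named genes, 1.71. It was at 1.41 on OSK 2, -0.30 on OSK 1, -0.65 on OSK 3 and -2.83, -0.43, -2.39 and -2.93 on OSKH 1 to OSKH 4, with ESC at -4.69. Its other probe had a gap of 1.76. Gm20767 was at 2.02 on OSK 2 and 0.38 on OSKH 2 (gap 1.63), Gm16367 at -1.90 and -3.48 (gap 1.58), and Gm21319 at -0.69 and -2.22 (gap 1.53). For all 3, OSKH 2 was the nearest array. Pramel20 was at 2.16 on OSK 2, 0.65 on OSK 1, 0.37 on OSK 3 and -1.02, 0.84, -0.50 and -0.78 on OSKH 1 to OSKH 4.

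In the promoters (250 bases before to 50 after the start) of the higher members, 41 genes with 46 promoters could be read. GATTNAATC, searched on both strands, was in 5 of the 46 (10.9%) and in 0.268% of all 32851 promoters. The 5 belong to AF067061, Gm13043, Gm4340, Pramel20 and Pramel31. TATAAA was in 32.6% of them and 13.6% of all promoters, and CACGTG in 2.17% and 7.15%. The median GC content was 49.7%, against 52.7% over all promoters. These motifs do not overlap one another, copies in 1 family share their sequence, and a match in a promoter is not a measured site.

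A second kind of higher member stood alone on OSK 2. In 27 of the 104, the other 6 iPSC arrays lay within 1 log2 unit of each other (77.0% of all features did), with a median gap of 0.92 on OSK 2. Only 2 features belonged to both kinds. These genes share no listed pathway, and each rests on 1 spot per array unless stated.

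A further 25 higher members were of neither kind. Chd3 is one of them, since its other 6 iPSC arrays spanned 1.37. It was at 6.00 on OSK 2, 1.94 on OSK 1, 2.61 on OSK 3 and 2.72, 2.47, 2.54 and 3.31 on OSKH 1 to OSKH 4, with ESC at 2.29. OSK 2 stood far above all 7 other arrays, which overlapped one another. Its gap was 2.69, and it was 3.40 above the mean of the other 6 iPSC arrays (2.60 ± 0.44, SD, n = 6), a 10.6-fold difference. Only 1 probe with 1 spot per array carries Chd3, so no second measurement on these arrays bears on it.

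The rest of the NuRD complex did not follow Chd3. All 15 genes of the list were examined and 1, Chd3, was a member. Chd4, the other main ATPase, was at 6.27 on OSK 2, just below the 6.28 to 6.50 of the other iPSC arrays, and Chd5 was at 0.06 against -1.03 to -0.09. Of the deacetylases, Hdac2 (-2.004 against -1.77 to -1.39) and, of the other subunits, Mta2 (gap 0.11 downward) were also below the others. Mta1, Mbd3 and Gatad2a were the highest on OSK 2 by gaps under 0.10. Hdac1, Mta3, Mbd2, Rbbp4, Rbbp7, Gatad2b and Cdk2ap1 lay within the other arrays. The median of OSK 2 minus the mean of OSK 1 and OSK 3 over the list was -0.05.

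**Figure D3:**
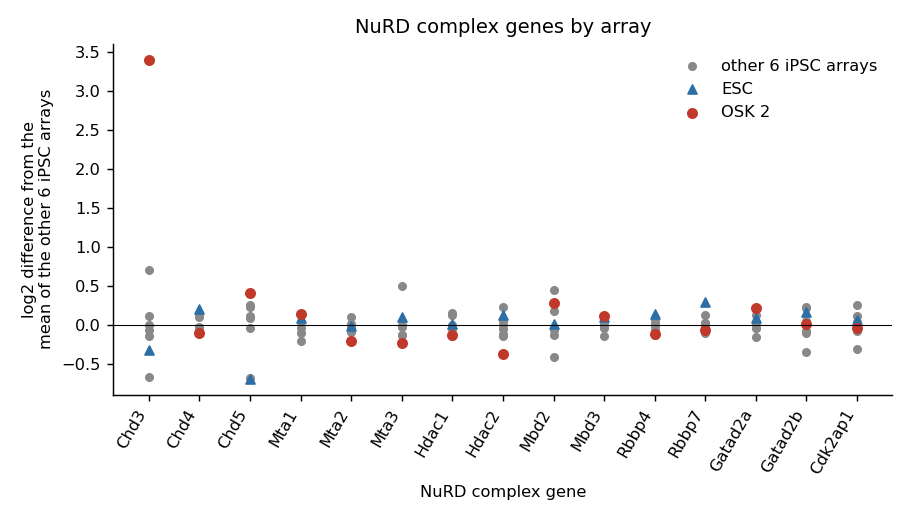
Log2 difference of each array from the mean of the other 6 iPSC arrays (y axis) for the 15 NuRD complex genes (x axis), with OSK 2 in red, the other iPSC arrays in grey and ESC as blue triangles. Chd3 on OSK 2 lies 3.40 above the mean, while OSK 2 lies close to the other arrays for the other 14 genes.

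Tdrkh, a Tudor domain protein of the piRNA pathway, had the largest gap of all named members, 2.73. It was at -1.15 on OSK 2, -4.85 on OSK 1, -4.46 on OSK 3 and -4.18, -3.99, -3.88 and -3.97 on OSKH 1 to OSKH 4. The other arrays lay close to background, and 3 of those 6 were well above it. Pik3r1, the regulatory subunit of phosphoinositide 3-kinase, was measured on all 8 arrays. It was at -0.25 on OSK 2, -2.92 on OSK 1, -2.90 on OSK 3 and -2.14, -2.25, -2.28 and -2.03 on OSKH 1 to OSKH 4, a gap of 1.78. OSK 1 and OSK 3 were the lowest of the 8, so OSK 2 differed most from its own group.

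Ngly1, which removes N-glycans from misfolded proteins, was at -2.07 on OSK 2 and between -4.64 and -3.84 on the other iPSC arrays. It was well above background on 3 of those 6. D4Ertd617e, in the spot next to that of Ngly1 on the array, was at -0.32 on OSK 2 and between -2.27 and -1.64 elsewhere. Whether their neighbouring position has a part in either level was not tested. Around the 103 single-spot higher members, the median of OSK 2 minus the mean of OSK 1 and OSK 3 over the neighbouring spots ran from -0.15 to 0.16, and 24 of the 103 had another member nearby.

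Mroh5, of the maestro repeat family, had the narrowest spread of the other arrays among the 15 named genes with the largest gaps: -0.36 on OSK 2 against -2.24 to -1.95. Ccnb1ip1, a ubiquitin ligase of meiotic crossing over, was at -0.81 on OSK 2 against -3.28 to -2.37, and Agt, the angiotensin precursor, at -1.86 against -4.53 to -3.42. Slfn2, of the Schlafen family, was at -2.27 against -4.86 to -3.88. Foxe3, a forkhead factor of the lens, was at -1.03 on OSK 2 and -2.71 on OSK 3, with the rest between -5.03 and -3.51. Of the other 6 iPSC arrays, Slfn2 was well above background on 2 and Foxe3 on 3, so much of these ranges is near background. The smallest gap of these 5 genes was 1.56, that of Ccnb1ip1.

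Tex38, a testis gene, had a gap of 2.23 (-2.13 on OSK 2 against -6.33 to -4.35), but its probe was well above background on 3 arrays. A second probe of Tex38, well above background on 1 array and so outside the filter, gave OSK 2 minus the mean of the other arrays as -0.084. Tlr2, a receptor for bacterial lipoproteins, was the 1 higher member with 10 spots on each array. Its OSK 2 spots ran from -0.72 to -0.58, above every spot of the other 7 arrays, whose highest was -1.28 on OSK 1. Its gap was 0.72.

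Milder higher members, chosen for mention after their values were seen, include Fbp1, an enzyme of gluconeogenesis (0.11 on OSK 2 against -2.33 to -0.81). Gdf7, a BMP family ligand, was at -1.78 against -2.94 to -2.56, and Hoxa5 at -3.04 against -6.36 to -3.90. Hoxa5 was well above background on 2 of the other 6 iPSC arrays. Just inside the threshold were Cilp2 (gap 0.708) and Arsk (0.713), and just outside it Hoxb13 (0.686) and Izumo1r (0.684). The threshold therefore divides like values. Over other probes of the higher members' genes that passed the filter, 15 of 18, in 13 genes, met the rule in the same direction. Those that met it belong to members with the shared order of arrays, and to NAP113099-1. That feature, without a gene name, stood alone on OSK 2 and had gaps of 0.99 to 1.30 on its other passing probes. The rest also belong to members that stood alone on OSK 2. They are a probe of Arsk (gap -0.24) and those of a coordinate-named feature (gaps -0.51 and -2.68). This coordinate-named feature had the largest gap of all higher members. Arsk was the only named gene outside the shared order with another passing probe, so the rest of these genes, Chd3 among them, have no such check.

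A further 151 features were above the other iPSC arrays by the rule and measured on OSK 2, but on too few arrays to pass the filter. The named ones with the largest gaps were E030003E18Rik, 4930503B20Rik, Olfr478, Olfr1182 and Tafa3, each well above background on OSK 2 alone. Against the mean of the lowest measurable signals of the other 6 arrays E030003E18Rik was at least 13.3-fold, 4930503B20Rik 12.9-fold, Olfr478 19.7-fold and Tafa3 14.3-fold higher, and Olfr1182 was at -1.11 on OSK 2. Olfr478 and Olfr1182 encode olfactory receptors and Tafa3 a secreted protein. Features measured on a single iPSC array and past the gap were common: OSK 2 had 132, OSKH 4 had 240, OSK 1 had 136, OSK 3 had 120, OSKH 1 had 100, OSKH 3 had 96 and OSKH 2 had 31. OSK 2 lay within the range of the others in this count.

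Lower members were mostly near background on OSK 2. Of the 74, 55 were not well above background there, of which 51 have only a bound and 4 have no fold, and 19 were measured on all 7 iPSC arrays. The median gap was 0.88, against 1.26 for the higher members. By kind, 32 of the 74 were named genes, 21 were features named by coordinates and 21 had other identifiers, while coordinate-named features made up 12.8% of those examined. Of the 19 measured ones, 8 were named genes: Mirg, Igtp, Irgm2, Gbp3, Gbp4, Psmb8, G0s2 and 6430411K18Rik.

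Mirg, the host transcript of a microRNA cluster in the imprinted region of chromosome 12, was the lowest on OSK 2. It was at 2.69 on OSK 2, 3.84 on OSK 1, 4.41 on OSK 3 and 3.60, 4.84, 4.54 and 3.84 on OSKH 1 to OSKH 4, with ESC at 4.41. OSKH 1 came next, 0.91 above OSK 2, and all 8 arrays were well above background. OSK 2 was 1.49 below the mean of the other 6 (4.18 ± 0.49, SD, n = 6), a 2.81-fold difference.

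Features named by coordinates (build mm9, per the file headers) that lie in the stretch chr12:110738120-110988678 followed Mirg. The stretch was picked after the values were seen. OSK 2 was the lowest iPSC array on 40 of 54 probes passing the filter there (74.1%), and on 11.0% of 6384 other coordinate-named probes. The gap was at least 0.7 on 12 of the 54 (22.2%), and on 0.611% of the other probes. The median of OSK 2 minus the mean of OSK 1 and OSK 3 was -1.30 over the 54 and -0.022 over the rest. The 54 probes cover 15 overlapping features, so they are not separate measurements. The stretch is given in mm9 and named genes in GRCm38.p6, and overlap of these features with Mirg was not examined. Some of them may be the Mirg transcript itself, so they are not separate support for its level.

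Of the 15 features, 12 were lowest on OSK 2 and 3 were members. The member at chr12:110894095-110899517, on the plus strand, was at 0.61 on OSK 2, 1.79 on OSK 1, 2.33 on OSK 3 and 1.69, 2.64, 2.29 and 2.11 on OSKH 1 to OSKH 4. The member at chr12:110973190-110987668, also on the plus strand, was at 0.11 on OSK 2, 1.12 on OSK 1, 1.51 on OSK 3 and 0.82, 1.97, 1.79 and 1.02 on OSKH 1 to OSKH 4. In both, OSK 2 was lowest and OSKH 1 next. The member at chr12:110738120-110769295, on the minus strand, differed in its order: it was at -3.45 on OSK 2 and highest on OSKH 1, at -1.28.

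The signal of the stretch was lower on OSK 2 but still measured. The probes' median level was -3.20 on OSK 2, -2.79 on OSKH 1, -2.27 on OSK 1 and -1.95 on OSK 3, with OSKH 2 at -1.63 and ESC at -1.82. Of the other genes of the imprinted list, 23 were examined in all and only Mirg was a member. The median of OSK 2 minus the mean of OSK 1 and OSK 3 over the list was 0.038. Dlk1, the paternally expressed gene of the same region, was at 0.85 on OSK 2, 0.94 on OSK 1 and 1.47 on OSK 3, with OSKH 1 the lowest of all. 6430411K18Rik, on chromosome 12 as well, was at -2.41 on OSK 2 against -1.70 to -0.53 and lay just inside the threshold (gap 0.718). Its promoter is at chr12:109591287-109591586 and that of Mirg at chr12:109734731-109735030, both in GRCm38.p6 and on the plus strand. Whether it lies within the mm9 stretch was not examined.

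**Figure D4:**
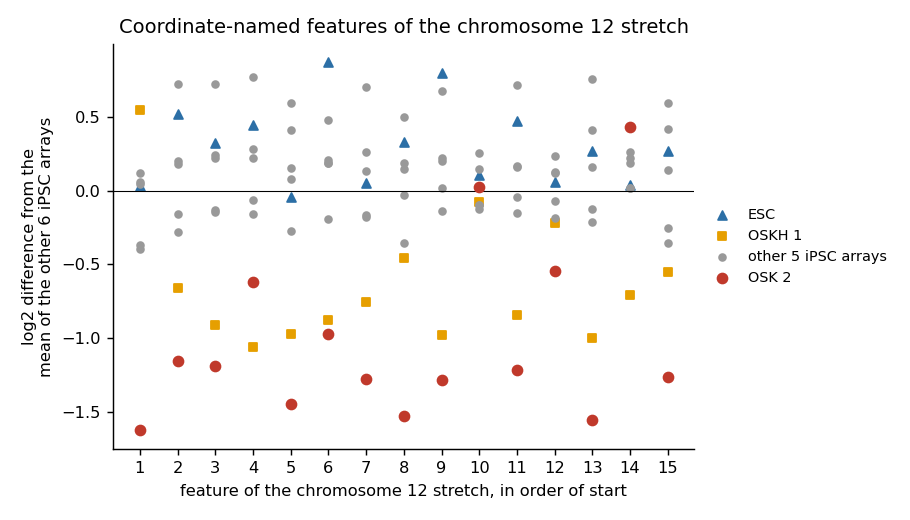
Log2 difference of each array from the mean of the other 6 iPSC arrays (y axis) for the 15 coordinate-named features of the chromosome 12 stretch in order of start (x axis), with OSK 2 in red, OSKH 1 in orange, ESC as blue triangles and the other iPSC arrays in grey. OSK 2 is the lowest iPSC array on 12 of the 15, and OSKH 1 is often the next.

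The promoters of 3 interferon-inducible lower members are shown for a motif they share. Each is again 250 bases before the RefSeq start (GRCm38.p6), on the plus strand. Capitals mark GAAANNGAA, core letters of the interferon-stimulated response element, on either strand in Irgm2 (chr11:58214727-58214976), Igtp (chr11:58199306-58199555) and Ifit1 (chr19:34640639-34640888).
Irgm2: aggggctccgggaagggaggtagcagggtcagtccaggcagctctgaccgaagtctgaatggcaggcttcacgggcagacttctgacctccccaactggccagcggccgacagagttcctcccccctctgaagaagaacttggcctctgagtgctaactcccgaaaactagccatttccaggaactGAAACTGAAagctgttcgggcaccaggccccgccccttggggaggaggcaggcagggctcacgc
Igtp: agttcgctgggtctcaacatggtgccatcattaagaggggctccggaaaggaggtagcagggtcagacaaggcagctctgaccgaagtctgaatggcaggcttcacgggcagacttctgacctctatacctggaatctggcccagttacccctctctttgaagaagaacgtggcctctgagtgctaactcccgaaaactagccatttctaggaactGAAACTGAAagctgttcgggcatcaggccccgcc
Ifit1: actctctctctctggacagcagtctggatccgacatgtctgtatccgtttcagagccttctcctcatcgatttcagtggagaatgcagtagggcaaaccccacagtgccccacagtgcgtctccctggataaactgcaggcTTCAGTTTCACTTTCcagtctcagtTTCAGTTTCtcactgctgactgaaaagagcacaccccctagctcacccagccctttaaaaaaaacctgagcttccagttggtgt
Irgm2 and Igtp, which lie close together on chromosome 11, each held the motif once, and Ifit1 held it 3 times. Among the 31 readable promoters of 27 lower members, GAAANNGAA was in 8 (25.8%), against 8.56% of all promoters and 19.6% of those of the higher members. The 8 are not all of interferon-inducible genes. Besides Irgm2, Igtp, Ifit1 and Gbp3, they belong to G0s2, Tll1 and Ms4a7 (each of its promoters), which are not grouped here as interferon-inducible. The motif was added after the values were seen. A form with 1 more letter was tried before it and was rarer in each of these 3 sets. The readable promoters of Cmpk2 and Psmb8, also interferon-inducible members, held no match, and 1 of the 2 of Gbp3 held it. A match does not show that a factor binds.

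Genes induced by interferon formed the second group among the lower members. Of 32 genes on the list for interferon and antigen presentation, 28 were examined, and 2 (Ifit1 and Psmb8) were members, both lower on OSK 2. OSK 2 was the lowest iPSC array for 11 of the 28 (39.3%) and for 2714 of the 22685 features. The median of OSK 2 minus the mean of OSK 1 and OSK 3 over the list was -0.24. Irgm2, Igtp, Gbp3, Gbp4, Cmpk2 and H2-Q1 are members outside the list and are grouped here after their values were seen, except Cmpk2, which the naming rule gave, and Igtp, named for its place at the threshold.

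Igtp, an IRG GTPase, had 10 spots on each array. Its level was 0.18 on OSK 2, 1.105 on OSK 1, 0.90 on OSK 3 and 1.42, 2.71, 3.25 and 1.06 on OSKH 1 to OSKH 4, with ESC at 2.14. Its OSK 2 spots ran from 0.07 to 0.29, and the lowest spot of any other array was 0.77, on OSK 3. OSK 2 was the lowest array, and OSKH 2 and OSKH 3 were the highest. It was 1.56 below the mean of the other 6 (1.74 ± 0.99, SD, n = 6), a 2.95-fold difference, with a gap of 0.724.

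Irgm2, its neighbour in the same family, was at -1.38 on OSK 2, -0.46 on OSK 1, -0.51 on OSK 3 and 0.33, 1.31, 1.73 and -0.04 on OSKH 1 to OSKH 4. Gbp3, a guanylate-binding protein, was at -1.88 on OSK 2, -0.75 on OSK 1, -1.15 on OSK 3 and -0.34, 0.93, 0.81 and -0.85 on OSKH 1 to OSKH 4. Gbp4 was at -3.20 on OSK 2, -1.94 on OSK 1, -2.36 on OSK 3 and -2.03, -1.26, -1.44 and -2.15 on OSKH 1 to OSKH 4. In all 3, OSK 2 was the lowest, OSK 3 the next, and OSKH 2 and OSKH 3 the highest.

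Psmb8, a subunit of the immunoproteasome, was at -2.51 on OSK 2, -1.48 on OSK 1, -1.14 on OSK 3 and -1.68, 0.51, 0.45 and 0.88 on OSKH 1 to OSKH 4. Here OSKH 1 was as low as the OSK arrays. Ifit1, which binds foreign RNA, was not well above background on OSK 2 (-4.22). It was at -2.55 on OSK 1, -3.24 on OSK 3 and -2.22, -1.28, -0.86 and -3.29 on OSKH 1 to OSKH 4, so that the mean of those 6 was at least 3.95-fold higher. Cmpk2, a mitochondrial nucleotide kinase, was likewise below measurement on OSK 2, and the mean of the other 6 was at least 2.87-fold higher. For H2-Q1, an MHC class I gene, that bound was 1.91-fold.

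Some further interferon genes, picked after their values were seen, were low on all arrays of the slide row that held OSK 2. Isg15, a ubiquitin-like modifier, was at 1.26 on OSK 2, 1.66 on OSK 3, 2.34 on OSK 1 and 2.02 on OSKH 4, and at 2.73 to 4.53 on OSKH 1 to OSKH 3 in the other row. Oas1a was at 2.97 on OSK 2, 3.09 on OSK 3, 3.77 on OSK 1 and 3.16 on OSKH 4, against 4.46 to 5.15. OSK 2 was the lowest in both genes by 0.41 and 0.12. Usp18, Oasl2 and Irf7 were lowest on OSKH 4. Over the 28 examined genes of the list, the median level was -0.27 on OSK 2, 0.31 on OSK 1, 0.004 on OSK 3 and 0.94 on OSKH 4. In the other row it was 0.87, 1.45 and 1.39 on OSKH 1 to OSKH 3 and 1.05 on ESC. The slide row of the array moves with the Isg15 and Oas1a levels, and its part in them was not tested.

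**Figure D5:**
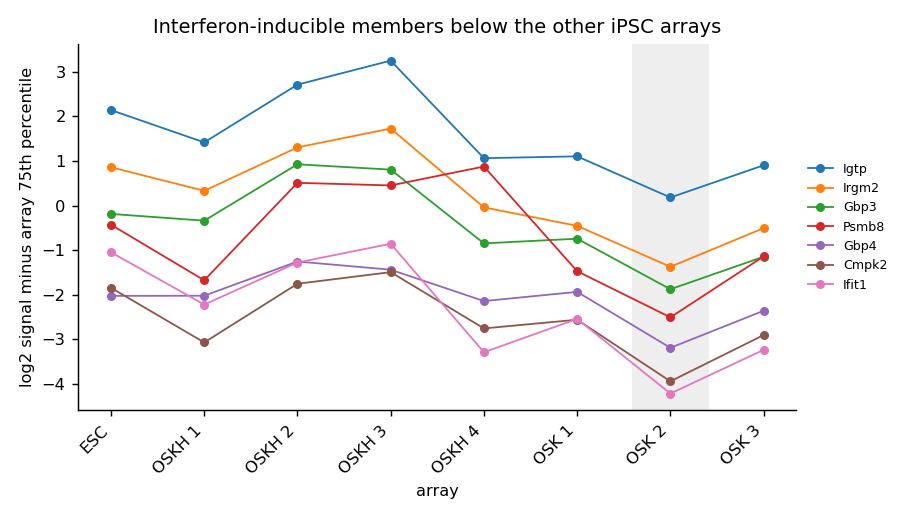
Level (log2 signal minus the 75th percentile of the array) of 7 interferon-inducible lower members on the 8 arrays, with OSK 2 shaded; lines only join the points of a gene, and the OSK 2 points of Cmpk2 and Ifit1 are not well above background. OSK 2 is lowest for each gene, and OSKH 2 and OSKH 3 lie high in most.

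Among the remaining lower genes, those with the largest gaps were near background. On OSK 2, Mansc4 (gap 1.64), Ms4a7 (1.48), Fmn1 (1.35), Olfr1349 (1.28), Epha10 (1.27), Prap1 (1.27), H2bfm (1.12), 1700030J22Rik (1.06) and Tac1 (1.05) were not well above background. H2bfm, a histone H2B gene of the X chromosome, had the highest bound of these: the mean of the other 6 iPSC arrays was at least 2.58-fold higher, with levels of -2.86 to -2.47 against -3.97. The bound was 1.67-fold for Ms4a7, a membrane protein of the MS4A family, and 1.47-fold for Mansc4. It was 1.19-fold for Fmn1, a formin that nucleates actin, and 1.04-fold for the olfactory receptor Olfr1349. Except for H2bfm, the bounds of these 9 genes were smaller than their gaps, which rest on signal near background.

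Mpig6b, 4930449E01Rik and Gm12409 were also bounds, of at least 1.60-fold, 2.53-fold and 2.07-fold. G0s2, an inhibitor of lipolysis measured on all arrays, was at -3.94 on OSK 2, -3.13 on OSK 1, -2.82 on OSK 3 and -1.30, -2.90, -2.24 and -2.78 on OSKH 1 to OSKH 4. OSK 1 was nearest and OSKH 1 farthest. Just outside the lower threshold were Ppfia2 (gap 0.694) and Gpr25 (0.682), both not well above background on OSK 2. Over other probes of the lower members' genes that passed the filter, 8 of 14, in 10 genes, had OSK 2 outside the others in the same direction, 4 of them past the gap.

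The ESC level took no part in the gap, but ESC counted among the 8 arrays of the filter and of the choice of probe. AK161464, for instance, passed the filter through OSK 2, 1 other iPSC array and ESC. The place of ESC is therefore not fully independent of the choice of members. ESC lay below all 6 other iPSC arrays for 44 of the 104 higher members (42.3%) and for 8.75% of all features. For the lower members it lay within the range of the 6 in 58 of 74 (78.4%), near the 71.7% of all features. ESC was thus below the others more often for the higher members than for all features. For the lower members its place was much like that for all features.

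Comparisons that leave OSK 2 out were fitted in limma over all 22685 features, with Benjamini-Hochberg adjustment. For ESC minus the other 6 iPSC arrays, 0 features passed an adjusted p of 0.05 (3.69% had an unadjusted p under 0.05). Among members, 16 of the 104 higher and 7 of the 74 lower had an unadjusted p under 0.05. The count of higher ones moved when single arrays were left out, and so did the count over all features. The median ESC difference of the higher members was -0.56, and 0.05 over all features. Zscan4f was 2.28 lower on ESC (log2 difference -2.28, SE 1.04). Its ESC level of -2.07 lay below every iPSC array, of which OSKH 1 was the lowest at -1.36. Zscan4f did not pass the threshold after adjustment over all features, and ESC is a single array.

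For OSKH minus OSK 1 and OSK 3, 0 features passed either (3.23% had an unadjusted p under 0.05), with 5 of the higher and 6 of the lower members at an unadjusted p under 0.05. The replicate block leaves 1 residual degree of freedom. With it, 53 of the higher and 7 of the lower members had such a p, beside 1655 of all 22685 features. Again 0 features passed after adjustment. OSKH 2 and OSKH 4 have no partner of their number in that fit, since OSK 2 stands apart. They do not enter its difference, which rests on the arrays numbered 1 and 3. Without OSKH 2 and without the block, the count was 52 of the higher and 3 of the lower, beside 879 of all features. The higher members numbered 8 without OSKH 4 (745 of all features) and 3 without OSKH 3 (557 of all features). The lower numbered 10 without OSKH 1 (1462 of all features) and 3 without OSKH 3. These counts thus rest on single arrays. Zscan4f had a log2 difference of -1.18 (SE 0.84, limma adjusted p = 1.00) and Irgm2 of 1.31 (SE 0.52, limma adjusted p = 1.00). Both share arrays with the range that chose the members, and ESC and OSKH differences share the OSK and OSKH arrays with each other. At this number of arrays neither gene's groups were told apart.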

How the data were processed

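Per the labels, Cy3-labelled cRNA of each sample's total RNA was hybridised to 1 array. Per the submitters' processing notes, spots were read with Agilent Feature Extraction 11.5.1.1. The deposited intensity is the authors' processed signal, background-subtracted within each array and not scaled between arrays, per the file headers. The other flags deposited (well above background, saturated, outlier) are 0 or 1 and are used as such. The deposited value table is on a log2 scale and equals the log2 processed signal shifted by a constant in each array (for 100% of probes, within 0.01); its column medians ran from -3.71 to -3.60.

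Of 55681 probes, 14 were left out because every spot carried an outlier flag on at least 1 array. Spots of a probe were averaged, the log2 signal was reduced by the 75th percentile of its array, and each feature was given by its probe with the highest mean among those passing the filter. Accessions matched without versions to RefSeq genes (GRCm38.p6) named 27644 probes, and 28023 kept the file's identifier. A probe not well above background on OSK 2 is given as a bound: the mean of the other arrays against the higher of the lowest signal well above background on OSK 2 and the probe's own. The members and all gene lists were chosen with earlier results of these data known.

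Fits used limma 3.58.1 in R 4.3.3 and were tested on simulated data; counts used Python 3.11.15. The single ESC array is assumed to vary like the iPSC arrays. The normexp alternative used median signals. Same-numbered OSKH and OSK arrays share a slide column, and their deviations from the group means correlated at 0.465, 0.259 and 0.450. For arrays of unlike number the correlations ran from -0.393 to 0.156. The numbers were taken to pair the arrays, but these values do not establish a pairing. Number and slide column cannot be told apart. The slide was shared: row 1 held ESC, OSKH 1, OSKH 2 and OSKH 3, and row 2 OSKH 4 and the OSK arrays. Named genes were the 15 higher and 15 lower with the largest gaps, 5 measured on OSK 2 but on fewer than 3 arrays, the 2-cell-like and NuRD genes, members on other lists, and those next to the threshold; others, among them Pramel20, D4Ertd617e, Tlr2, G0s2, Dlk1, Isg15, Oas1a, Usp18, Oasl2 and Irf7, were chosen after their values were seen. A further promoter motif that was searched is not reported here.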

Additional observations from a re-analysis of the deposited data

Results flagged for a closer look

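Among 50 genes named in the text, 4 had 1 OSKH array far from the other 3 by Dixon's criterion, which marks about 1 group in 20 by chance. Gm8300 was at -2.71 on OSKH 2, with the next array at -4.90, and Gm16367 was at -3.48 on OSKH 2, with the next at -6.08. Ccnb1ip1 was at -2.37 on OSKH 1, with the next array at -3.16. Psmb8 was at -1.68 on OSKH 1, with the next at 0.45. The causes were not tested.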

How the results depend on the processing

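The main counts were 104 higher and 74 lower. With normexp background correction they were 64 and 8, without a filter on dim probes 387 and 169, and with features well above background on all 8 arrays 44 and 19. Against OSK 1 and OSK 3 alone they were 185 and 231. A gap of 0.5 gave 137 lower and a gap of 1.0 gave 28, and arrays of the same slide row gave 153 lower. Leaving out each other array in turn gave 105 to 123 higher and 78 to 118 lower, the 118 without OSK 1. Of the 50 genes named, all kept their direction under normexp and 24 kept the gap; 47 kept it under quantile normalization and 46 under median scaling. OSK 2 minus the mean of the others was -0.084 for Tex38 without a filter, from another probe near background. In limma, ESC minus the other iPSC arrays had 6 features past the threshold without the filter, and 0 otherwise; leaving out each array gave 0 to 0. With the replicate block, OSKH minus OSK 1 and OSK 3 had 0, as without it (1655 and 732 at an unadjusted p under 0.05); no replicate block could be fitted for ESC, which has no such number. With the slide row as a block, both comparisons had 0. The causes were not tested.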
